A study of Homo sapiens with 6 samples.

Results

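The aminoacyl-tRNA synthetases were examined in H23 cells, a human lung adenocarcinoma line, as a set of 36 genes fixed by name: 20 cytosolic enzymes and 16 mitochondrial enzymes, the latter with symbols that end in 2. All 36 were found among the 27968 genes of the deposited tables, under their older symbols, and all 36 passed the filter on low counts. The cells had been transfected with a control siRNA or with an siRNA directed at HOTAIR-N, an isoform of HOTAIR, which is a long non-coding RNA, and total RNA was taken 48 hours later. Each group held 3 libraries from independent transfections of the same line, so the comparison is of a transient knockdown in a single cell line. Both groups received the same transfection reagent, so the controls are transfected cells too.

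An aminoacyl-tRNA synthetase joins an amino acid to its tRNA, which makes it the step at which the genetic code is read. Human cells run this reaction in the cytosol and again in mitochondria, where the mRNAs of respiratory chain subunits are translated, and most amino acids have a separate nuclear gene for each place. Lysine and glycine are exceptions, since KARS and GARS each supply both compartments from a single gene. Many cytosolic enzymes are known targets of ATF4, the transcription factor of the amino acid response, and several are bound together in the multisynthetase complex.

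The libraries held 32715361 to 36578681 expected counts, which are estimates that divide reads shared between transcripts. A member gene rested on 388 to 15571 of them in a library. HOTAIR itself fell by 1.04 on the log2 scale (SE 0.14, edgeR quasi-likelihood test, adjusted p = 1.32e-05), with no overlap between the groups. Control replicate 1 stood somewhat apart, with a chi-square per degree of freedom of 13.5 to 14.9 against the other controls, where other pairs within a group gave 2.10 to 7.11. Of the epithelial markers, KRT8 and KRT18 were abundant, while the surfactant genes SFTPA1, SFTPB and SFTPC were at 0.03 TPM or less in both group means. Other markers were low too, with EPCAM at 6.88, KRT19 at 5.18 and NAPSA at 0.42 TPM in the control mean. As a whole, the 11 markers of lung epithelium summed to 3717 to 4425 TPM in the controls and 2924 to 3295 TPM with HOTAIR-N siRNA, and of the 8 tested 3 rose and 1 fell. The gene that fell was KRT18, from 2592 to 1535 TPM in the mean, while KRT8 was at 1505 and 1570 TPM and CDH1, KRT7 and NKX2-1 rose, and the median log2 fold change of the list was 0.37. The part of these markers in the results was not tested. The summed level of 9 markers of blood, endothelial and stromal cells was 3.51 to 4.19 TPM in the controls and 2.74 to 3.78 TPM with HOTAIR-N siRNA, most of it from CD14 (2.69 and 2.21 TPM in the mean) and COL3A1 (0.93 and 0.87 TPM), neither of them called. VWF was called higher at 0.06 and 0.12 TPM, and PTPRC, CD3E and PECAM1 were at or near 0. The part of these markers was not tested either. In cultured cells measured in bulk, fewer cells of a kind and less RNA per cell cannot be told apart.

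The sequence that separates the isoforms of lysyl-tRNA synthetase is shown first, because the clearest isoform difference among the 36 genes concerned it. In GENCODE release 29 the KARS transcript matched to NM_001130089 has an additional exon 2 at chr16:75644283-75644462 (GRCh38, minus strand, 180 nt). Its start codon lies in that exon, and the protein has 625 residues. NM_005548 lacks that exon, starts in exon 1, and encodes 597 residues. As background, the longer protein is the mitochondrial form and the shorter the cytosolic form. The lines give the coding part of each first coding exon, 146 and 62 bases long, at chr16:75644283-75644428 and chr16:75647578-75647639, with the start codon in capitals.
KARS mitochondrial start, NM_001130089: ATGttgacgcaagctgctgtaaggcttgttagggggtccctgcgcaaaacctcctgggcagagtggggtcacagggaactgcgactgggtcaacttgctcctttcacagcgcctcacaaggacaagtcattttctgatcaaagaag
KARS cytosolic start, NM_005548: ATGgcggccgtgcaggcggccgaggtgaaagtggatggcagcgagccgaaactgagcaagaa

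The isoforms of KARS moved apart with HOTAIR-N siRNA. NM_001130089, which carries the mitochondrial start, was at 55.4, 64.3 and 65.4 TPM in the control libraries and at 95.1, 89.8 and 93.7 TPM with HOTAIR-N siRNA. Every HOTAIR-N siRNA library was above every control, and the isoform rose by 0.65 on the log2 scale (SE 0.06, edgeR quasi-likelihood test over isoforms, adjusted p = 0.00244). NM_005548, with the cytosolic start, was at 278.4, 280.4 and 287.0 TPM in the controls and at 262.6, 258.7 and 264.7 TPM with HOTAIR-N siRNA, a log2 fold change of -0.05 that did not pass (adjusted p = 0.424). In the authors' percentages the mitochondrial form made up 17.9 ± 1.16% of KARS transcripts in the controls and 26.2 ± 0.42% with HOTAIR-N siRNA (SD, n = 3 each). The test of isoform use within the gene called KARS (edgeR's diffSpliceDGE, adjusted p = 0.00272). It was still called without each library in turn (adjusted p from 0.0109 to 0.0312). For the KARS gene as a whole the log2 fold change was 0.10 (SE 0.05), which did not pass at the gene level (adjusted p = 0.0955).

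**Figure D1:**
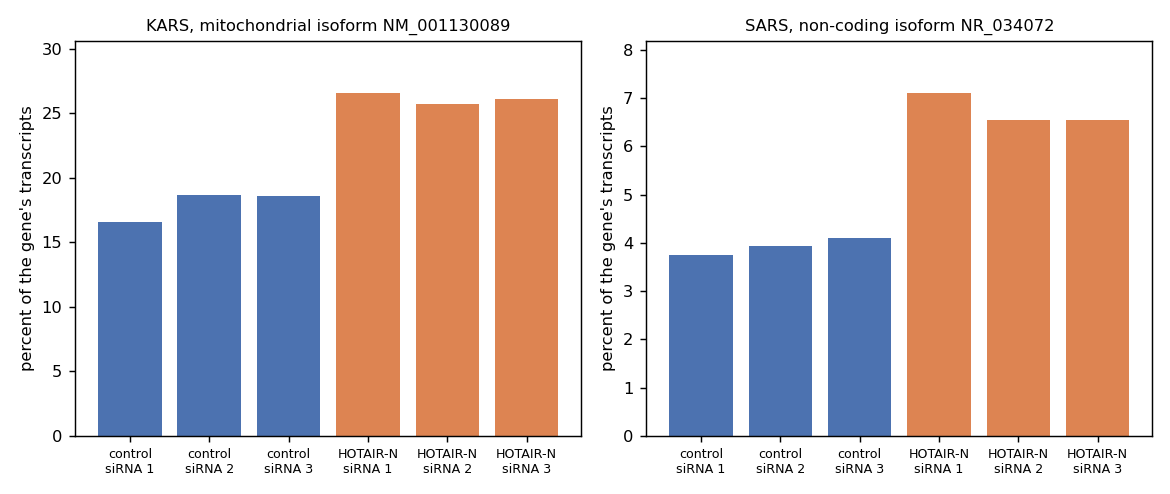
Percent of its gene's transcripts that an isoform makes up, by library, for the mitochondrial isoform of KARS (left) and the non-coding isoform of SARS (right), 3 control siRNA bars in blue and 3 HOTAIR-N siRNA bars in orange. The HOTAIR-N siRNA bars are the taller in both panels, at 25.8 to 26.6% against 16.6 to 18.7% for KARS and at 6.54 to 7.11% against 3.74 to 4.11% for SARS.

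SARS, the seryl enzyme of the cytosol, was the other member called for isoform use, out of 21 members with several tested isoforms, where 4.13% of all such genes were called. Its non-coding isoform NR_034072 rose from 13.0 ± 0.27 to 19.3 ± 0.66 TPM (SD, n = 3 each), while the coding isoform NM_006513 fell from 317.3 ± 9.52 to 266.1 ± 4.53 TPM (SD, n = 3 each). The SARS call (edgeR's diffSpliceDGE, adjusted p = 0.0382) was lost when any single library was left out (adjusted p from 0.0748 to 0.164). The fall of NM_006513 was lost without HOTAIR-N siRNA replicate 1 (adjusted p = 0.0772), 2 (0.0752) or 3 (0.0933). GARS, the glycyl enzyme that serves both compartments, showed no such call (adjusted p = 0.679). Its main isoform NM_002047 fell from 314.0 ± 19.7 to 225.2 ± 0.84 TPM (SD, n = 3 each), and the minor NM_001316772 was at 9.48 ± 2.96 and 11.2 ± 2.71 TPM (SD, n = 3 each).

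Among 88 tested isoforms of the 36 genes, 7 rose and 14 fell (edgeR), where 9.39% and 10.1% of all isoforms tested did so and 19.5% were called in all. Besides KARS NM_001130089, SARS NR_034072 and GARS NM_002047, the isoforms with the smallest p were those that dominate their genes. LARS2 NM_015340 fell by 0.91, WARS NM_173701 by 0.55, YARS NM_003680 by 0.50 and HARS NM_002109 by 0.25 on the log2 scale, and CARS2 NM_024537 rose by 0.44. Chosen after its values were seen, WARS NM_213645, which encodes 430 residues where NM_173701 encodes 471, fell by 1.71 (SE 0.35, adjusted p = 0.0241). It went from 12.7, 7.17 and 14.1 TPM in the controls to 4.24, 2.33 and 3.42 TPM. Reads shared by isoforms are divided by estimate, and this error is not part of the SE.

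At the gene level the cytosolic enzymes leaned lower and the mitochondrial enzymes went both ways. Of the 20 cytosolic genes, 10 were lower, 3 higher and 7 not called, and of the 16 mitochondrial genes, 4 were lower, 7 higher and 5 not called (edgeR quasi-likelihood test, adjusted over all genes). This is 65% and 68.8% called, while 57.5% of all 15072 genes tested were called, 28.7% higher and 28.8% lower. Read against that background, 50% of the cytosolic genes fell and 15% rose, whereas 25% of the mitochondrial genes fell and 43.8% rose. The groups did not overlap in normalised counts in 25 of the 36 genes (69.4%), against 62.9% of all genes tested. The median log2 fold change was -0.14 for the cytosolic and 0.07 for the mitochondrial genes, beside 0.01 for all genes tested. Changes were small: the median absolute log2 fold change of the 36 genes was 0.20, against 0.29 for all genes, and only LARS2 and WARS went past a fold of 1.5. Against a fold of 1.5, a test that 11.3% of all genes passed, only LARS2 was called (adjusted p = 0.000193).

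**Figure D2:**
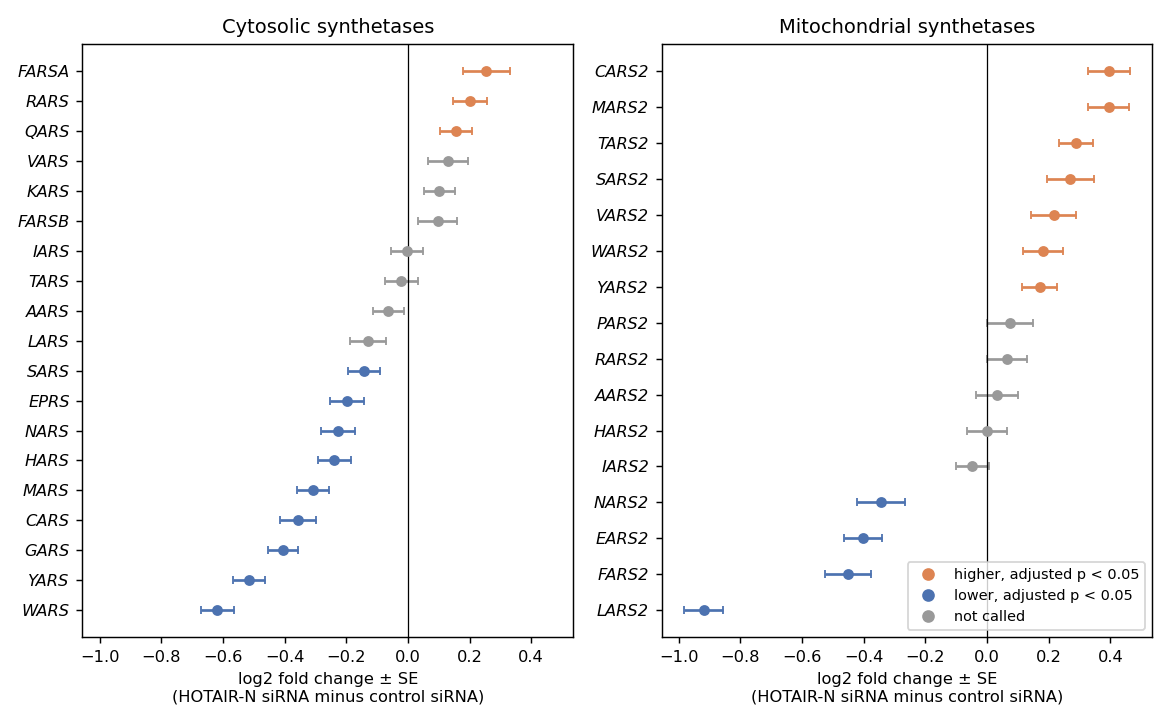
Log2 fold change of each synthetase gene (x axis, HOTAIR-N siRNA minus control siRNA, bars are SE from the fit over 3 libraries a group), cytosolic left (1 gene not shown) and mitochondrial right. Orange marks genes called higher, blue genes called lower and grey genes not called; WARS at -0.62 and LARS2 at -0.92 are the lowest of their panels and FARSA at 0.25 and CARS2 at 0.40 the highest.

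Tryptophanyl-tRNA synthetase, WARS, which interferon gamma is known to induce in many cells, fell the most among the cytosolic enzymes. It was at 95.3, 100.6 and 98.4 TPM in the controls and at 61.6, 60.5 and 63.0 TPM with HOTAIR-N siRNA. No library of one group reached the other, and the log2 fold change was -0.62 (SE 0.05, adjusted p = 1.45e-07). YARS, the tyrosyl enzyme, was at 210.2, 226.0 and 203.6 TPM and then at 140.5, 148.1 and 145.6 TPM. It fell by 0.52 on the log2 scale (SE 0.05, adjusted p = 6.97e-07), again with the groups apart.

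GARS fell from 313.6, 342.9 and 314.0 TPM to 233.2, 238.8 and 237.2 TPM, a log2 fold change of -0.41 (SE 0.05, adjusted p = 5.20e-06). CARS, which charges cysteine, fell from 73.2, 69.7 and 70.7 TPM to 54.2, 54.0 and 52.8 TPM, or by 0.36 on the log2 scale (SE 0.06, adjusted p = 0.000116). MARS, the methionyl enzyme and a member of the multisynthetase complex, fell from 217.0, 211.8 and 205.1 TPM to 164.0, 167.8 and 165.5 TPM, or by 0.31 (SE 0.05, adjusted p = 0.000137). In all 3 genes the lowest control was above the highest HOTAIR-N siRNA library, and within the HOTAIR-N siRNA group the values lay close together.

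HARS, NARS, EPRS and SARS fell by smaller amounts, with log2 fold changes of -0.24, -0.23, -0.20 and -0.14. EPRS is a single chain that charges both glutamate and proline. SARS went from 340.9, 333.1 and 322.1 TPM in the controls to 281.8, 290.1 and 287.8 TPM with HOTAIR-N siRNA, with the groups apart. Its call rests on single libraries and on scaling. The adjusted p of SARS was 0.0501 with control replicate 1 left out, and 0.0763, 0.0843 and 0.111 with HOTAIR-N siRNA replicates 1, 2 and 3 left out in turn. With upper-quartile scaling it was 0.0675, and with plain library totals 0.0588.

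The 3 cytosolic genes that rose were FARSA, the alpha subunit of the phenylalanyl enzyme, RARS, which charges arginine, and QARS, which charges glutamine. FARSA was at 151.4, 133.3 and 128.7 TPM in the controls and at 144.4, 167.5 and 166.6 TPM with HOTAIR-N siRNA. Its groups overlapped, since HOTAIR-N siRNA replicate 1 lay below control replicate 1, and the rise of 0.25 on the log2 scale (SE 0.08, adjusted p = 0.00989) was lost when control replicate 2 was left out (adjusted p = 0.0508). RARS went from 156.2, 179.7 and 171.7 TPM to 196.4, 182.0 and 187.1 TPM, with a log2 fold change of 0.20 (SE 0.06, adjusted p = 0.00676).

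QARS was at 103.4, 105.1 and 103.7 TPM in the controls and at 110.7, 112.2 and 114.6 TPM with HOTAIR-N siRNA, a log2 fold change of 0.16 (SE 0.05, adjusted p = 0.0163). It did not pass without HOTAIR-N siRNA replicate 2 (adjusted p = 0.0547) or 3 (0.0859). FARSB, the beta subunit that pairs with FARSA, had a log2 fold change of 0.10 and did not pass (adjusted p = 0.216). The remaining cytosolic genes that did not pass were VARS at 0.13, KARS at 0.10, IARS at -0.0025, TARS at -0.02, AARS at -0.06 and LARS at -0.13. Of these, LARS passed as lower without control replicate 1 (adjusted p = 0.0013), VARS passed as higher without control replicate 1 (0.0206) or HOTAIR-N siRNA replicate 1 (0.0404), and KARS passed as higher with upper-quartile scaling (0.046) or plain library totals (0.0425). VARS and VARS2 are listed in several copies in the isoform tables, between which their reads are divided.

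LARS2, the mitochondrial leucyl enzyme, showed the largest change of the 36 genes. It was at 17.4, 18.3 and 17.8 TPM in the controls and at 9.20, 9.27 and 8.99 TPM with HOTAIR-N siRNA. Neither group spread by more than 1 TPM, and the log2 fold change was -0.92 (SE 0.06, adjusted p = 1.76e-08), the level of HOTAIR-N siRNA being 52.9% of control. The log2 fold change lay between -0.93 and -0.88 in all 16 alternative analyses.

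FARS2, which charges phenylalanine in mitochondria, fell from 19.3, 19.7 and 19.4 TPM to 12.9, 13.8 and 14.7 TPM, a log2 fold change of -0.45 (SE 0.08, adjusted p = 0.000118). EARS2, the mitochondrial glutamyl enzyme, fell from 22.7, 23.8 and 23.3 TPM to 17.2, 17.6 and 16.5 TPM, or by 0.40 on the log2 scale (SE 0.06, adjusted p = 5.13e-05). NARS2, for asparagine, fell by 0.34 (SE 0.08, adjusted p = 0.00138). Groups did not overlap in any of these 3 genes. The outlying value among them was NARS2 in control replicate 1, at 24.5 TPM where the other controls had 31.2 and 31.2 TPM.

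CARS2 and MARS2, the mitochondrial cysteinyl and methionyl enzymes, rose the most. CARS2 went from 26.5, 27.0 and 28.7 TPM to 33.6, 36.1 and 35.5 TPM, a log2 fold change of 0.40 (SE 0.07, adjusted p = 0.00016). MARS2 went from 19.5, 19.2 and 18.4 TPM to 23.2, 24.1 and 25.6 TPM, a log2 fold change of 0.39 (SE 0.07, adjusted p = 0.000123). Both showed every HOTAIR-N siRNA library above every control.

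TARS2, for threonine, rose from 53.1, 54.7 and 51.6 TPM to 60.8, 63.9 and 63.5 TPM, or by 0.29 on the log2 scale (SE 0.06, adjusted p = 0.000401). SARS2, for serine, rose from 18.7, 17.2 and 16.2 TPM to 19.8, 20.8 and 20.4 TPM, or by 0.27 (SE 0.08, adjusted p = 0.00792). In TARS2 the groups were about 6 TPM apart at their nearest, in SARS2 about 1 TPM.

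Smaller rises were called for VARS2 (0.22), WARS2 (0.18) and YARS2 (0.17), which charge valine, tryptophan and tyrosine. WARS2 was at 27.3, 30.3 and 30.6 TPM in the controls and at 32.6, 30.9 and 33.6 TPM with HOTAIR-N siRNA. YARS2 was at 73.8, 75.0 and 76.4 TPM and then at 85.4, 79.8 and 80.5 TPM. The groups were apart but near each other in both genes, and these calls rest on single libraries. With control replicate 2 left out, the adjusted p was 0.0839 for VARS2, 0.0579 for WARS2 and 0.0722 for YARS2. With HOTAIR-N siRNA replicate 1 left out it was 0.0541, 0.0761 and 0.113. VARS2 was also lost with control replicate 3 left out (0.0908), and VARS2 and WARS2 with HOTAIR-N siRNA replicate 3 left out (0.0931 and 0.12). PARS2 (0.07), RARS2 (0.06), AARS2 (0.03), HARS2 (-0.0011) and IARS2 (-0.05) did not pass.

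**Figure D3:**
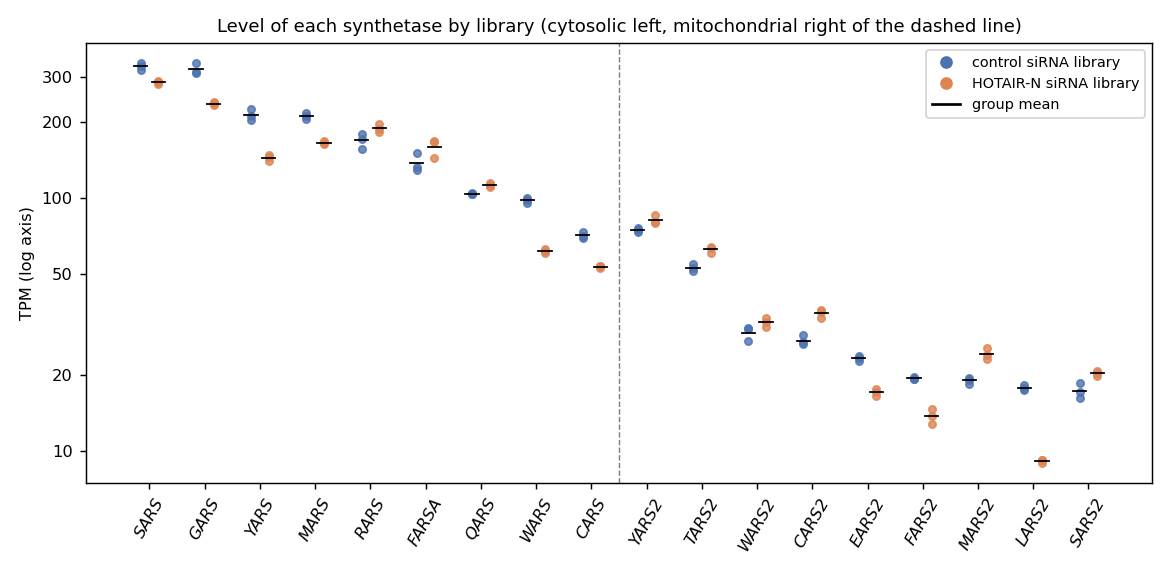
Level in TPM (log axis) of 18 synthetases in each library, with control siRNA points in blue, HOTAIR-N siRNA points in orange and a black bar at the group mean. Cytosolic enzymes lie left of the dashed line and mitochondrial enzymes right of it; LARS2 drops from 17.8 to 9.15 TPM and WARS from 98.1 to 61.7 TPM in the mean.

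Levels differed widely between the genes. In the controls the cytosolic genes ran from 70.3 ± 5.91 TPM (SD, n = 3) for FARSB to 343.6 ± 9.33 TPM (SD, n = 3) for KARS, and the top of that order, KARS, SARS, GARS and TARS, did not separate beyond the SD of neighbours. Mitochondrial genes ran from 11.1 ± 0.59 TPM (SD, n = 3) for PARS2 to 121.3 ± 8.10 TPM (SD, n = 3) for IARS2. IARS2, YARS2 and TARS2 each stood above the next gene beyond the SD, while LARS2 and VARS2 did not stand apart from each other, nor VARS2 from SARS2. With HOTAIR-N siRNA, LARS2 became the lowest of the 36 genes, at 9.15 ± 0.15 TPM (SD, n = 3).

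Summed over the genes, the cytosolic enzymes went from 3504 ± 117.5 to 3137 ± 27.2 TPM (SD, n = 3 each), with every HOTAIR-N siRNA library below every control. The mitochondrial sum, over the 16 genes with symbols that end in 2, was 549.6 ± 17.3 and 551.7 ± 4.45 TPM (SD, n = 3 each), with overlapping groups. KARS and GARS, which serve both compartments, were counted whole as cytosolic in the sums and the share. The mitochondrial form of KARS, at 61.7 ± 5.46 and 92.8 ± 2.75 TPM (SD, n = 3 each), is therefore left out of the mitochondrial sum. The cytosolic share of all synthetase TPM was 86.5, 86.6 and 86.3% in the controls and 84.8, 85.2 and 85.1% with HOTAIR-N siRNA. These sums are given as a description, with no test.

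The enzymes for the same amino acid parted in some combinations. Of 17 combinations of a cytosolic with a mitochondrial gene, the called directions were opposite in 6 and the same in 2, and in the other 9 at least 1 gene was not called. Of all genes tested, 28.7% were higher and 28.8% lower, so unrelated genes can also be called in opposite directions. No share of opposite calls was computed for other gene pairs. WARS, CARS, MARS, YARS and SARS fell while WARS2, CARS2, MARS2, YARS2 and SARS2 rose, and FARSA rose while FARS2 fell. In CARS with CARS2 and MARS with MARS2, both calls held in all alternatives other than the test against a fold of 1.5. The calls of SARS, FARSA, WARS2 and YARS2 were each lost in at least 1 other alternative. NARS with NARS2 and EPRS with EARS2 fell together. The cytosolic gene was the higher in TPM in every library for all 17 combinations.

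The ratio of WARS to WARS2 in TPM was 3.33-fold in the controls and 1.91-fold with HOTAIR-N siRNA, a difference of -0.80 on the log2 scale. On the log2 scale that of CARS to CARS2 went from 1.38 to 0.61 and that of MARS to MARS2 from 3.47 to 2.77. The ratio of YARS to YARS2 went from 2.84-fold to 1.77-fold. In the opposite direction LARS to LARS2 went from 5.06-fold to 8.72-fold and FARSA to FARS2 from 7.04-fold to 11.5-fold. Among single genes, the groups did not overlap in normalised counts in 62.9% of all genes tested. No such share was computed for ratios of other gene pairs, so 14 of 17 has no background of its own kind. The ratios did not overlap between groups in 14 of the 17 combinations, with 9 lower and 5 higher. The exact two-sided permutation test then gave p = 0.1, the smallest that 3 against 3 libraries allow, and 0.121 adjusted over the 17. IARS to IARS2 (1.19-fold and 1.22-fold), NARS to NARS2 and VARS to VARS2 overlapped. Several combinations share EPRS or FARS2 and are not independent.

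**Figure D4:**
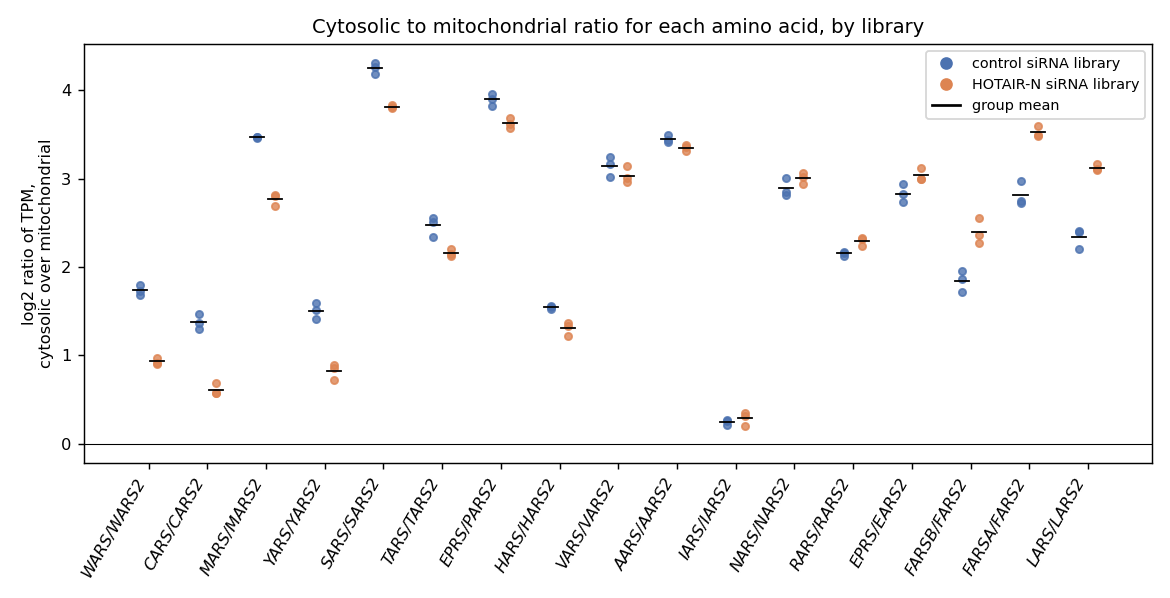
Log2 ratio of TPM, cytosolic over mitochondrial gene, for 17 combinations that serve the same amino acid, ordered by the difference between groups; points are libraries (control siRNA blue, HOTAIR-N siRNA orange) and black bars group means. The means move down for WARS/WARS2 (1.74 to 0.93) at the left end and up for LARS/LARS2 (2.34 to 3.12) at the right end.

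Of the 12 cytosolic genes listed as known ATF4 targets, 8 fell, none rose and 4 did not pass, with a median log2 fold change of -0.21. The 8 cytosolic genes outside that list had 3 higher, 2 lower and 3 not called, with a median of 0.12. This is 66.7% and 62.5% called, both near the 57.5% of all genes tested, of which 28.7% were higher and 28.8% lower. By the structural classes, class I had 2 higher and 5 lower of 10 genes and class II 1 higher and 5 lower of 10, with medians of -0.16 and -0.10. The 8 enzymes of the multisynthetase complex had 2 higher and 3 lower, with a median of -0.07, and the 12 cytosolic enzymes outside it 1 higher and 7 lower, with a median of -0.18. Between 60% and 70% of each of these 4 groups were called, again near the share of all genes. These groups of the same 20 genes overlap, and no difference between them was tested.

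Genes of the ATF4 pathway itself were measured beside them. Of 20 such genes, 11 fell, 5 rose and 4 did not pass (edgeR), with a median log2 fold change of -0.21. This is 80% called, where 57.5% of all genes tested were called, 28.7% higher and 28.8% lower. The gene of the factor itself, ATF4, was at 373.0, 342.5 and 343.2 TPM in the controls and at 264.0, 278.1 and 283.5 TPM with HOTAIR-N siRNA, a log2 fold change of -0.31 (SE 0.06, adjusted p = 0.000417). The members with the smallest p were ATF5, a related factor, at -1.52, MTHFD2, a mitochondrial folate enzyme, at -0.62, ASNS, the asparagine synthetase, at -0.64, and PPP1R15B, a phosphatase subunit that reverses the eIF2 alpha mark, at 0.53. The ASNS level went from 146.1, 150.7 and 136.6 TPM to 90.3, 90.6 and 87.9 TPM, with the groups apart. Chosen after its values were seen, EIF2AK4, which encodes the kinase GCN2 that senses uncharged tRNA, rose by 0.21 on the log2 scale (SE 0.05, adjusted p = 0.0045). The list did not move as one. TRIB3 (0.40) and SESN2 (0.35), also named after their values were seen, rose. ATF3 (-0.01) and SHMT2 (-0.01) did not pass, beside the 11 of 20 genes that fell.

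Of the 3 scaffold genes of the multisynthetase complex, AIMP2 rose by 0.26 on the log2 scale (SE 0.07, adjusted p = 0.00363), and AIMP1 (0.07) and EEF1E1 (0.05) did not pass. Of 9 tested mitochondrial partners, 3 rose, 3 fell and 3 did not pass, so that 66.7% were called, near the 57.5% of all genes tested. Their median absolute log2 fold change was 0.32, against 0.20 for the 36 synthetases and 0.29 for all genes. TUFM and TSFM, elongation factors of mitochondrial translation, rose by 0.42 and 0.38, and TRNT1, which adds the CCA end to tRNAs, by 0.33. Named after their values were seen, GATB (-0.32) and GATC (-0.15) fell, while QRSL1 (-0.11) did not pass (edgeR, adjusted p = 0.159). All of these encode subunits of the enzyme that makes mitochondrial glutaminyl-tRNA from the product of EARS2.

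**Figure D5:**
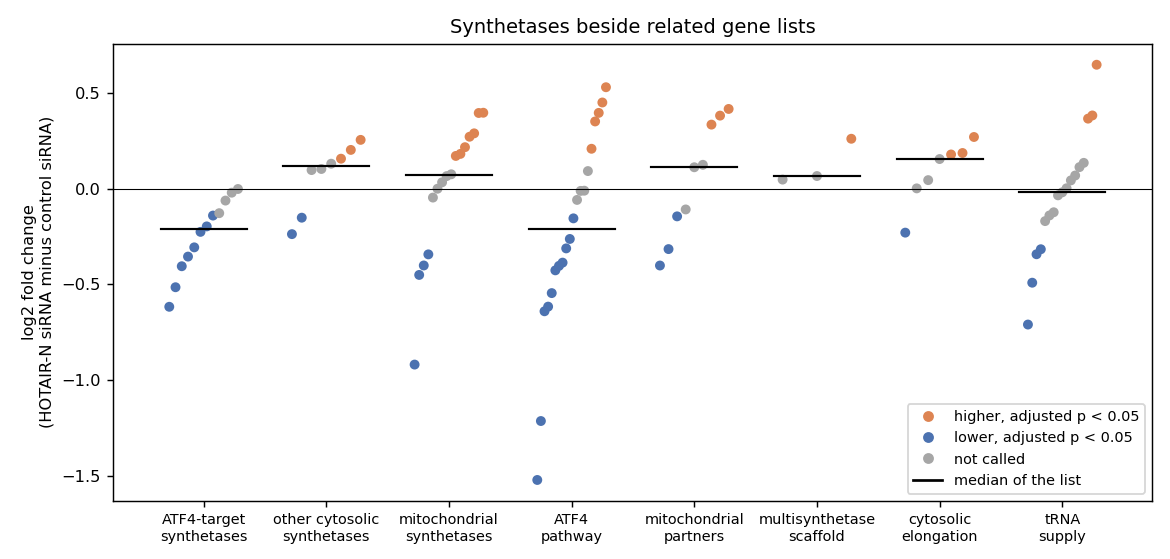
Log2 fold change (HOTAIR-N siRNA minus control siRNA) of the synthetases in 3 groups and of 5 lists of related genes; each point is a tested gene, orange called higher, blue called lower, grey not called, and the black line is the median of the list. The medians are -0.21 for the synthetases listed as ATF4 targets and -0.21 for the ATF4 pathway genes, against 0.12 for the other cytosolic and 0.07 for the mitochondrial synthetases.

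Promoters were searched for the core of the C/EBP-ATF composite element, the site ATF4 is known to bind, spelled TGATGNAA on either strand. RefSeq entries (GRCh38.p14, 250 bases before to 50 after the start) were found for 30 of the 36 genes; those of LARS, VARS, YARS, AARS2 and VARS2 were among the ones not used here. The core was present in 6 of 16 cytosolic promoters (37.5%) and 1 of 14 mitochondrial promoters (7.14%), where 3.67% of all 27305 promoters of that length hold it. The 6 cytosolic genes are all listed as ATF4 targets, 10 of which had an entry. The lines show the core in capitals with 10 bases on each side, on the strand where it is spelled so, to show that all 6 cytosolic matches have the same 8 letters.
AARS, chr16:70289676-70289703, plus strand: ctaacttggcTGATGCAActgcgagaaa
CARS, chr11:3057408-3057435, plus strand: tcctagaatcTGATGCAAccgccgcccc
IARS, chr9:92293693-92293720, plus strand: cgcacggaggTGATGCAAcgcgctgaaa
MARS, chr12:57488054-57488081, minus strand: aatccctcgcTGATGCAAccggaaccgg
NARS, chr18:57621805-57621832, minus strand: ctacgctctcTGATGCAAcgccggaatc
TARS, chr5:33440957-33440984, minus strand: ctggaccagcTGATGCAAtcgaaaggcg
YARS2, chr12:32756077-32756104, minus strand: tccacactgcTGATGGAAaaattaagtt

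The genes with this core did not move alike. CARS (-0.36), MARS (-0.31) and NARS (-0.23) fell, AARS (-0.06), IARS (-0.0025) and TARS (-0.02) did not pass, and YARS2 (0.17) rose. Among cytosolic genes with an entry the median log2 fold change was -0.14 with the core and -0.02 without it, and among the listed ATF4 targets -0.14 with it and -0.30 without it. WARS and GARS, which fell more than CARS, have no TGATGNAA in this window. The interferon-stimulated response element was found in EARS2 alone, on the promoters searched (3.65% of all promoters hold it), and overlaps no match of the core. A match describes the letters in the window and does not show binding.

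Transcripts were also searched for GACCAAT and ACCAATA, words that earlier results of these same data tied to lower expression, so that the values here are no independent support. The transcript searched was the longest coding one in GENCODE release 29 linked by name to the most abundant RefSeq isoform of each gene. This gave 35 of the 36 genes and left out RARS2. The transcript searched can be longer than the isoform measured. For TARS it has 4314 nt, where the deposited gene length was 2800 nt, so whether its site lies in the measured transcript is not known. Either word was in the 3' UTR of 4 genes (11.4%), against 10.2% of the 13023 genes searched, and in the coding sequence of 2 (5.71%), against 10.9%. The sites are shown because LARS2, the gene that fell the most, carries ACCAATA in its 3' UTR. The word is in capitals with 11 bases on each side, and the coordinates (GRCh38) are those of the word.
LARS2, 3' UTR, chr3:45548072-45548078, plus strand: atgttcaaataACCAATAtgtggaaatgg
EARS2, 3' UTR, chr16:23522911-23522917, minus strand: cgaggcctcccACCAATAgccatgggagt
LARS, 3' UTR, chr5:146113517-146113523, minus strand: ttcaactaagaACCAATAatggcttcttc
TARS, 3' UTR, chr5:33468496-33468502, plus strand: caaaatcttctACCAATAaatggtgattg
MARS, coding, chr12:57515001-57515007, plus strand: tcgacatggcaACCAATAtattcaggtga
IARS, coding, chr9:92253395-92253401, minus strand: gtagatattctGACCAATtggtatgttag

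Of the 4 genes with the word in the 3' UTR, LARS2 (-0.92) and EARS2 (-0.40) fell, and LARS (-0.13) and TARS (-0.02) did not pass. MARS (-0.31) fell, and IARS (-0.0025), the only member with GACCAAT, did not pass. Both overlapping words were present together in none of the 35 genes. The other genes with a log2 fold change of -0.30 or lower, namely WARS, YARS, GARS, CARS, FARS2 and NARS2, carry neither word in the transcript searched. Over all genes searched, the median log2 fold change was -0.25 with either word in the 3' UTR and 0.02 without. Among the cytosolic members it was -0.08 with and -0.15 without, the other way. Among the mitochondrial members it was -0.66 and 0.17, with 2 genes holding a word in each compartment. The part of the words in these changes was not tested.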

How the data were processed

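Libraries were stranded and depleted of ribosomal RNA, per the labels' protocols. Per the submitters' processing notes, the tools were RSEM 1.3.0 and STAR 2.6.0c, and the build was hg19. The sources used here name neither the annotation release nor whether counting used strand, so genes that overlap on opposite strands are uncertain. Per the file headers, the deposited tables give RSEM's expected counts and the authors' TPM, scaled per length within each library, for 27968 genes and 70006 isoforms, and each isoform's percent of its gene. Transcript lengths are the deposited values in nucleotides.

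Expected counts were rounded (10.9% of gene values were not whole) before testing. The test was that of edgeR 4.0.16 (R 4.3.3): filterByExpr, TMM scaling, robust quasi-likelihood test, Benjamini-Hochberg adjustment over all genes or isoforms, threshold 0.05. Isoform use was tested with diffSpliceDGE, with a Simes p for each gene. Log2 ratios of TPM used a pseudocount of 0.1. TPM serves for levels, and fold changes come from the scaled counts. Steps were tested on simulated data. Some genes that enter the counts are not reported here by name.

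The members, lists and words were chosen with earlier results of these data known. Values in every library are given for the called genes with the 5 highest and 5 lowest cytosolic and 3 highest and 3 lowest mitochondrial log2 fold changes and for pairs called in opposite directions; isoforms are the 8 with the smallest p, those of KARS and GARS and those of genes called for isoform use. Alternatives were other scalings, filters and tests (DESeq2 1.42.0, limma-voom in limma 3.58.1, a fold of 1.5), a removed length trend, a replicate block and each library left out.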

Additional observations from a re-analysis of the deposited data

How the results depend on the processing

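Of the 24 called synthetases, 17 kept their call in all alternatives other than the test against a fold of 1.5, and no gene of the 36 reversed. That test called 1700 genes (830 higher, 870 lower) and, among the members, 0 cytosolic (0 higher, 0 lower) and 1 mitochondrial gene (0 higher, 1 lower), with 0 and 1 at an unadjusted p under 0.05 (edgeR glmTreat), where DESeq2 called 13 and 11. It called 1 member isoform. Leaving out a library in turn gave 4 to 7 mitochondrial genes higher (4 without control replicate 2 or HOTAIR-N siRNA replicate 1), 4 lower, 2 to 4 cytosolic genes higher and 8 to 10 lower, 14 to 22 isoforms and 1 to 1 gene called for isoform use, which was KARS. Over all genes those fits called 7503 to 9234, with 3707 to 4661 higher and 3796 to 4573 lower, where the main fit called 8672. The cytosolic median was -0.14 to -0.10 in those fits, -0.11 with upper-quartile scaling, -0.11 with plain library totals and -0.11 with the length trend removed. DESeq2 called 32 isoforms of the 120 it tested, and 7802 of all genes. The number of all isoforms called is not given for these alternatives. With no filter on low counts 1 gene was called for isoform use, and SARS was not (adjusted p = 0.118).

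The replicate block called 10 cytosolic and 9 mitochondrial genes, 7 isoforms, and 1 gene for isoform use (KARS, adjusted p = 0.0338). Over all genes it called 7984, where the main fit called 8672. The labels share only numbers: deviations of same-numbered libraries correlated at -0.24, -0.0061 and -0.078. Member genes rest on as few as 388 counts in a library, and for the low ones counting error is part of the SE. Isoform values carry the unstated error of dividing reads.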

Other observations

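Genes that prepare tRNAs or use charged tRNAs, outside the synthetases, were also measured. Of 17 genes of tRNA supply, 3 rose, 4 fell and 10 did not pass (edgeR quasi-likelihood test), or 41.2% called, where 57.5% of all genes tested were called. RTCB, the ligase that joins tRNA exons, went from 137.2, 143.4 and 136.8 TPM in the controls to 84.8, 80.7 and 81.8 TPM, a log2 fold change of -0.71, and XPOT, which exports tRNA from the nucleus, had -0.49. DTD2 and AARSD1, which clear wrongly charged tRNAs, had 0.65 and 0.38. Of 7 genes of cytosolic elongation, 3 rose, 1 fell and 3 did not pass, or 57.1% called, with EEF1G at 0.27, EEF1A1 at 0.18, EEF1B2 at 0.19 and EEF1D at -0.23. Of the interferon gamma response genes, PSMB9 (0.54) and IRF1 (0.40) rose and TAP1 (-0.02) did not pass, beside the fall of WARS by 0.62 on the log2 scale.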
